A study of Mus musculus with 20 samples.

Results

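The genes described here lie on mouse chromosome 11 and were brightly measured in all 4 pluripotent lines of an Illumina bead array series. A gene was a member where its mean was 9.5 or more on a normalized log2 scale in each of E14-mES, GFPoct4, C57-mES and sFB-protein-iPS, and where its symbol does not start with Rpl, Rps, Mrp, Psm, Nduf, Cox, Atp5, Uqcr or Krt. This gave 256 members out of 1338 chromosome 11 genes and 16593 genes in all, with the chromosome taken from RefSeq. The members were thus chosen by their level in the same arrays, and that they are bright is no finding. What was compared is their level in 1 line against the other lines, along the chromosome and beside 2428 genes that meet the same rule on the 18 other autosomes.

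The series holds total RNA from 20 mouse samples, 1 array each, in 5 groups of 4. The titles and source fields of E14-mES and C57-mES give embryonic stem (ES) cells, the cultured cells of the early embryo. GFPoct4 is called ES cells only in its source and cell type fields. The group sFB-protein-iPS is labelled as induced pluripotent stem (iPS) cells, which are body cells reprogrammed towards the ES state. FVB-sFB is the non-pluripotent group by its title and the series title, which speaks of skin fibroblasts, although its source and cell type fields read embryonic stem cell. The labels give no passage number, sex, karyotype or culture medium, and no strain beyond what these names hold. They do not say whether the 4 arrays of a group came from separate cultures, so p-values measure only the spread between these arrays, which may be technical.

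Whole chromosomes are sometimes gained or lost in cultured mouse ES cells, and gains of chromosomes 8 and 11 are among those known to recur. A gained chromosome generally raises the RNA of many of its genes by a modest amount, less than the spread between unrelated genes, so that it shows in a shared shift and not in any single gene. Chromosome 11 carries Stat3, which transmits the self-renewal signal of leukaemia inhibitory factor (LIF) in mouse ES cells, its feedback inhibitor Socs3, the Polycomb gene Suz12, and many genes of splicing, translation and mitosis. DNA was not measured in the data used here, so copy number was not tested. In RNA from whole cultures, fewer cells that express a gene and less RNA per cell cannot be told apart.

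On the level scale used here the 12 measured pluripotency markers of a list of 13 averaged 12.69 in E14-mES, 12.81 in GFPoct4, 12.30 in C57-mES, 12.80 in sFB-protein-iPS and 6.74 in FVB-sFB. The 13 fibroblast markers averaged 7.02, 8.55, 7.92, 7.10 and 12.90 in the same order, so that GFPoct4 and C57-mES lay above the other pluripotent lines. Of these 13, limma called 10 higher in GFPoct4 and none lower, and 4 higher and 2 lower in C57-mES. The 9 primitive endoderm markers averaged 7.79, 8.66, 7.79, 9.84 and 8.51. All 9 were higher in sFB-protein-iPS than in the mean of the other 3 lines. In C57-mES 8 of these 9 were called lower and 0 higher. Of the 12 pluripotency markers 2 were called higher and 5 lower in C57-mES, and 4 and 4 in E14-mES. The pluripotency calls were 5 higher and 0 lower in GFPoct4, and 6 and 3 in sFB-protein-iPS. Within the pluripotent lines 2 arrays stood apart in single genes, E14-mES replicate 4 and GFPoct4 replicate 1, and what changes without them is given for the shift, the counts of calls and the genes whose call or size it alters. The part of marker RNA in the differences below was not tested.

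The bases before the start of 5 members are shown as a description, and their part in any difference was not tested. Nxn and Suz12 were called higher in C57-mES, Hap1 and Stat3 were called lower there, and Socs3, the partner of Stat3, was not called. Each run is the 250 bases upstream of the gene's start from RefSeq (GRCm38.p6), written 5′ to 3′ on the strand of the gene. Capitals mark CG dinucleotides, except in Socs3, where they mark the letters TTCNNNGAA, the core that STAT proteins are known to recognise.
Nxn, minus strand of chr11:76399142-76399391: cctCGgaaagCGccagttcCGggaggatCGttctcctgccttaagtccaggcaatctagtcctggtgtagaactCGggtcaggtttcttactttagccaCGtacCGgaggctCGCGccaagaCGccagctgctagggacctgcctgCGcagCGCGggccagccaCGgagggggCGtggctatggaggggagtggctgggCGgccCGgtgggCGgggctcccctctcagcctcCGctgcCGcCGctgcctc
Suz12, plus strand of chr11:79992856-79993105: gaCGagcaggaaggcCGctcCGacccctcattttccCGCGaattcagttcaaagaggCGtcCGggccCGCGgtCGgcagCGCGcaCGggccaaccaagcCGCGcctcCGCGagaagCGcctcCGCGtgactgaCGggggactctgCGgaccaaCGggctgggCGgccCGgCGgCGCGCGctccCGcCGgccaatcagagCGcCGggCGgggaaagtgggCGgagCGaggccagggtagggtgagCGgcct
Hap1, minus strand of chr11:100356142-100356391: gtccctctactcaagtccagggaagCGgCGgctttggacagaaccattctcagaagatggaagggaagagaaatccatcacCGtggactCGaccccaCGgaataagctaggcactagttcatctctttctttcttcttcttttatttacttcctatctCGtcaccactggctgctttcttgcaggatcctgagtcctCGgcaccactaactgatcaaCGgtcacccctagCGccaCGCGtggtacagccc
Stat3, minus strand of chr11:100939541-100939790: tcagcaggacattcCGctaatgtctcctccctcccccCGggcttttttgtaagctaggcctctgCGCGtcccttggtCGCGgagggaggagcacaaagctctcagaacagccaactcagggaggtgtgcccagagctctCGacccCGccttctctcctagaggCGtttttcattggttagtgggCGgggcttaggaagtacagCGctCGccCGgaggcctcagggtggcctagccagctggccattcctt
Socs3, minus strand of chr11:117969367-117969616: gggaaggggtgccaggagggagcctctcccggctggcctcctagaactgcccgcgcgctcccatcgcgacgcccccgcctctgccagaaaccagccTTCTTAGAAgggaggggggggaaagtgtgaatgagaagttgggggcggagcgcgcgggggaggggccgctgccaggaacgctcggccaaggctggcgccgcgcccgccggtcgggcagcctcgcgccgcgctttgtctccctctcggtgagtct
Hap1 has 2 starts in the table, of which 1 is shown. The runs hold 21 CG dinucleotides for Nxn, 37 for Suz12, 11 for Hap1, 13 for Stat3 and 26 for Socs3. Of the 222 members with an entry in the table the median was 17, the same as for bright genes on the other autosomes and above the 11 of all measured genes. TTCNNNGAA, which reads the same on both strands, was found in 16 member promoters (7.21%), in 5.4% of those of bright genes elsewhere and in 7.18% of all promoters in the table. In Socs3 it starts 154 bases before the gene's start, and in Hap1 204 bases before. A match describes letters only and names no bound site.

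The question of the main comparison was whether 1 line carried the chromosome 11 genes at a shifted level. The C57-mES line did. For each array the shift was taken as the median log2 difference of the 256 members to the mean of the other 3 lines, less the same median over the bright genes of the other autosomes. It was 0.258, 0.238, 0.223 and 0.205 on the 4 C57-mES arrays, which is 0.23 ± 0.02 (SD, n = 4) or 1.17-fold. The shift was -0.041, -0.027, -0.067 and -0.036 on the E14-mES arrays and -0.064, -0.105, -0.136 and -0.157 on the GFPoct4 arrays. On the sFB-protein-iPS arrays it was -0.117, -0.103, -0.091 and -0.062. Every C57-mES array lay above 0 and above each of the other 12 pluripotent arrays, and each of those 12 lay below 0. No p is given for this score, because the members were chosen with results of these arrays known.

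**Figure D1:**
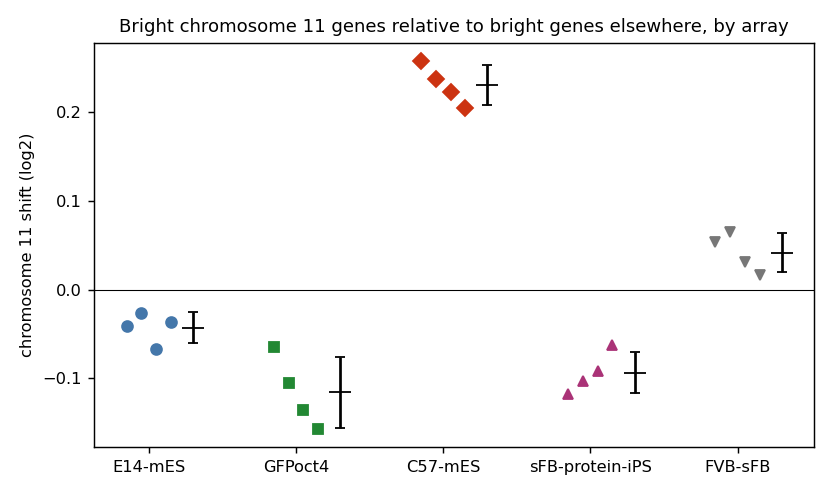
Chromosome 11 shift of each array (log2, vertical axis) by group (horizontal axis), with the mean and SD of 4 arrays beside each group. The pluripotent lines are set against the mean of the other 3 lines and FVB-sFB against the mean of all 4. The C57-mES arrays lie between 0.205 and 0.258, and the other pluripotent arrays between -0.157 and -0.027.

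C57-mES is among the 3 lines that each other line was compared with, so part of their negative shift follows from its level. Set against each other without C57-mES, the 3 remaining lines differed little. E14-mES then lay at 0.02 ± 0.02, GFPoct4 at -0.02 ± 0.03 and sFB-protein-iPS at -0.01 ± 0.01 (SD, n = 4 each). By pairs, C57-mES was shifted by 0.236 above sFB-protein-iPS, and E14-mES and GFPoct4 lay at -0.226 and -0.282 relative to C57-mES. The pairs without C57-mES differed by 0.00228, -0.000688 and 0.00156. Of the members 71.1% were higher in C57-mES than in sFB-protein-iPS, against 47.8% of bright genes elsewhere. Between E14-mES and GFPoct4 the share was 50.8%, against 50.6% elsewhere. Leaving out E14-mES replicate 4 and GFPoct4 replicate 1 together gave a C57-mES shift of 0.235.

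The shift was carried by many members moving a little. In C57-mES the middle member differed by 0.18 from the mean of the other lines, with the 10% point at -0.31 and the 90% point at 0.71. Over bright genes elsewhere the middle gene lay at -0.04 and those points at -0.64 and 0.51. The interquartile range was 0.54 for the members and 0.56 elsewhere, so these points of the distribution all lay higher in the members, while its width was about the same. Among the members 177 (69.1%) lay above 0 in C57-mES, where 46.8% of the bright genes elsewhere did.

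**Figure D2:**
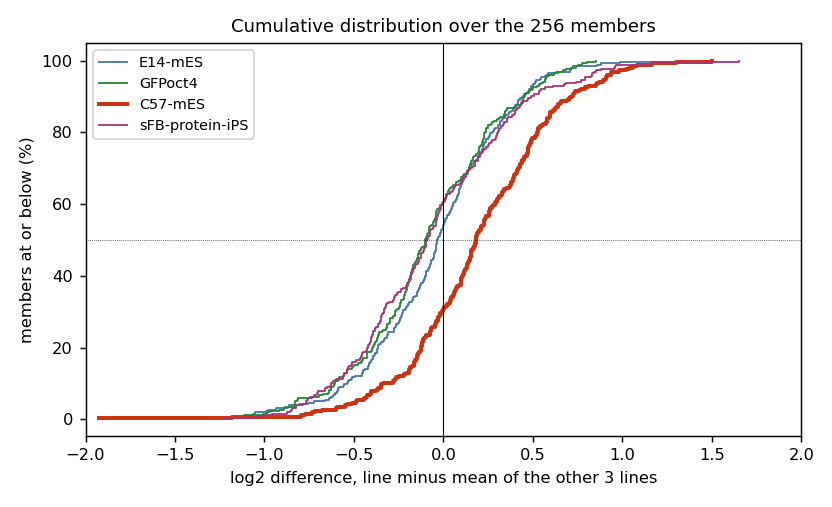
Cumulative distribution of the 256 members by their log2 difference to the mean of the other 3 lines (horizontal axis), 1 curve a line, as the percent of members at or below each difference (vertical axis). The C57-mES curve lies to the right of the others over most of its length and crosses 50% at 0.18, while the others cross at -0.10 to -0.04.

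Single genes were tested with limma over all 16593 genes and called at an adjusted p under 0.05, with no minimum fold. In C57-mES 119 members were called higher (46.5%) and 31 lower (12.1%). Over all genes 17.8% were called higher and 19.2% lower, and over bright genes elsewhere 25.5% and 30.8%. Without the 2 arrays that stand apart it was 140 higher and 37 lower. No share of other genes is given for that setting, so the larger counts are not read as a result about the members. Of the called members 112 of the higher and 29 of the lower differed by less than 2-fold. In E14-mES 60 members were called higher and 72 lower (23.4% and 28.1%), beside 18.0% and 16.2% of all genes and 28.5% and 23.8% of bright genes elsewhere. In GFPoct4 57 were called higher and 88 lower (22.3% and 34.4%), beside 17.3% and 17.9% of all genes and 28.3% and 24.5% elsewhere. In sFB-protein-iPS 63 were called higher and 90 lower (24.6% and 35.2%), beside 18.4% and 19.7% of all genes and 28.0% and 29.2% elsewhere. In these 3 lines the share of higher members lay between that of all genes and that of bright genes elsewhere, and the share of lower members lay above both. The 4 comparisons share arrays and are not independent of each other.

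The split of calls moved with the scaling of the arrays. Of the members called in C57-mES 79.3% were higher after quantile normalization, 80.3% after median centring and 93.3% in the deposited value table, which is not normalized. For E14-mES the share was 45.5%, 81.2% and 92.4%, and for sFB-protein-iPS 41.2%, 15.2% and 5.46%. Bright genes elsewhere moved alike, with 54.5%, 84.8% and 94.6% in E14-mES and 48.9%, 19.5% and 6.01% in sFB-protein-iPS. For GFPoct4 the share among members was 39.3%, 39.1% and 28.6%, beside 53.7%, 57.2% and 48.9% among bright genes elsewhere. In C57-mES the bright genes elsewhere had 45.3%, 46.1% and 58.2%. In the value table the median difference of all genes was 0.26 in E14-mES and -0.28 in sFB-protein-iPS, so the counts of calls in those lines are read here only relative to genes elsewhere.

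On 4 arrays against 12, 42 members (16.4%) were higher on every C57-mES array than on any other pluripotent array. That held for 5.67% of all genes and 8.07% of bright genes elsewhere. In the other direction 10 members (3.91%) were lower on every C57-mES array, beside 6.14% and 12.5%. In sFB-protein-iPS 43 members (16.8%) lay below all other arrays, beside 5.18% of all genes and 10.2% of bright genes elsewhere, and 20 (7.81%) above, beside 5.39% and 10.5%. E14-mES had 10 members above (3.91%, beside 3.76% and 5.11%) and 10 below (3.91%, beside 2.48% and 4.94%). GFPoct4 had 13 above (5.08%, beside 3.59% and 5.48%) and 14 below (5.47%, beside 2.53% and 4.90%).

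Changes of 2-fold or more were few in every line. In C57-mES 7 members were called higher by at least 2-fold (2.73%), beside 2.10% of all genes and 1.57% of bright genes elsewhere, and 2 lower (0.781%), beside 2.39% and 2.55%. E14-mES had 1 higher, beside 1.48% and 1.40%, and 5 lower (1.95%), beside 1.19% and 1.36%. For GFPoct4 limma called 0 higher, beside 1.66% and 1.48%, also at an unadjusted p under 0.05, and 4 lower (1.56%), beside 0.916% and 0.741%. In sFB-protein-iPS 3 were higher (1.17%), beside 1.52% and 2.10%, and 2 lower (0.781%), beside 1.82% and 1.52%.

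Among the 18 other autosomes the C57-mES shift, computed the same way, ran from -0.30 on chromosome 8 to 0.13 on chromosome 13. Chromosome 11 was the highest. Its 46.5% of genes called higher stood beside at most 35.3%, on chromosome 3, and its 12.1% called lower beside at least 21.6%. The other lines had their highest value elsewhere, E14-mES on chromosome 6 with 0.185, GFPoct4 on chromosome 8 with 0.161 and sFB-protein-iPS on chromosome 13 with 0.169. On chromosome 8, with 182 bright genes, C57-mES lay at -0.30 ± 0.02 (SD, n = 4), and that shift was larger in size than the one on chromosome 11. There sFB-protein-iPS lay at 0.164, GFPoct4 at 0.161 and E14-mES at -0.054. Each of these values depends on the other lines, and chromosome 8 was not compared without C57-mES.

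**Figure D3:**
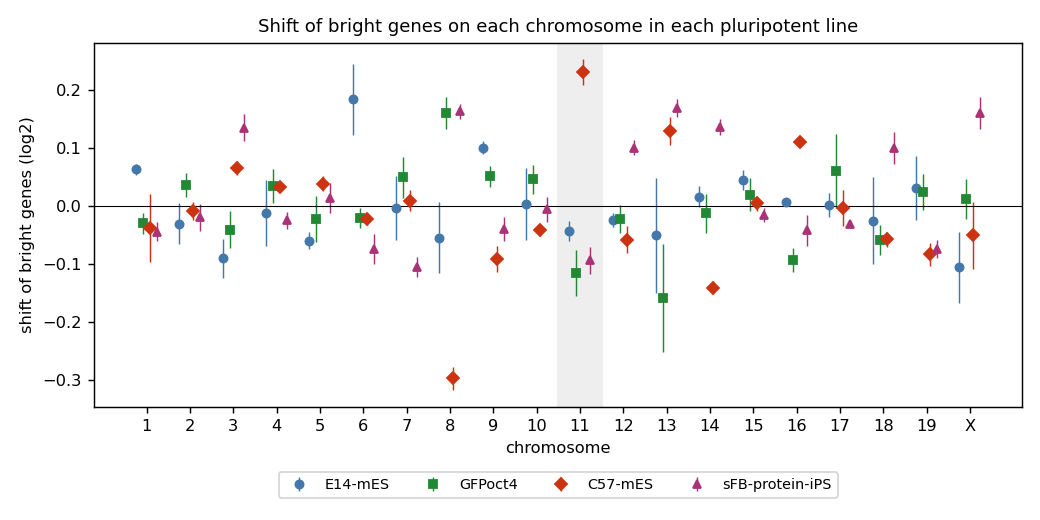
Shift of the bright genes of each chromosome (log2, vertical axis) in each of the 4 pluripotent lines (1 symbol a line, bars are the SD of 4 arrays). In C57-mES chromosome 11 is the highest with 0.23 and chromosome 8 the lowest with -0.30.

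Along chromosome 11 the members were placed in RefSeq order and divided into 10 blocks of 25 or 26 neighbours. In C57-mES all 10 blocks lay above 0. The lowest was the third, from Nhp2 to Cops3, with 0.15 ± 0.01 (SD, n = 4), and the highest the ninth, from Dcakd to Mif4gd, with 0.38. The tenth, from Llgl2 to Tbcd, followed with 0.35. The other lines changed sign along the chromosome. E14-mES had 4 blocks above 0 and 6 below, from -0.26 in the second block, from Sertad2 to Hnrnpab, to 0.08. GFPoct4 and sFB-protein-iPS each had 2 above and 8 below, and their blocks ran from -0.24 to 0.12 in both lines. Of 97 blocks of similar size on the other autosomes 11 (11.3%) reached 0.153 or more in C57-mES, and their range was -0.41 to 0.34. In running windows of 15 members C57-mES was above 0 in 236 of 242, with values from -0.09 to 0.56. The same windows were above 0 in 88 for E14-mES, 47 for GFPoct4 and 63 for sFB-protein-iPS.

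**Figure D4:**
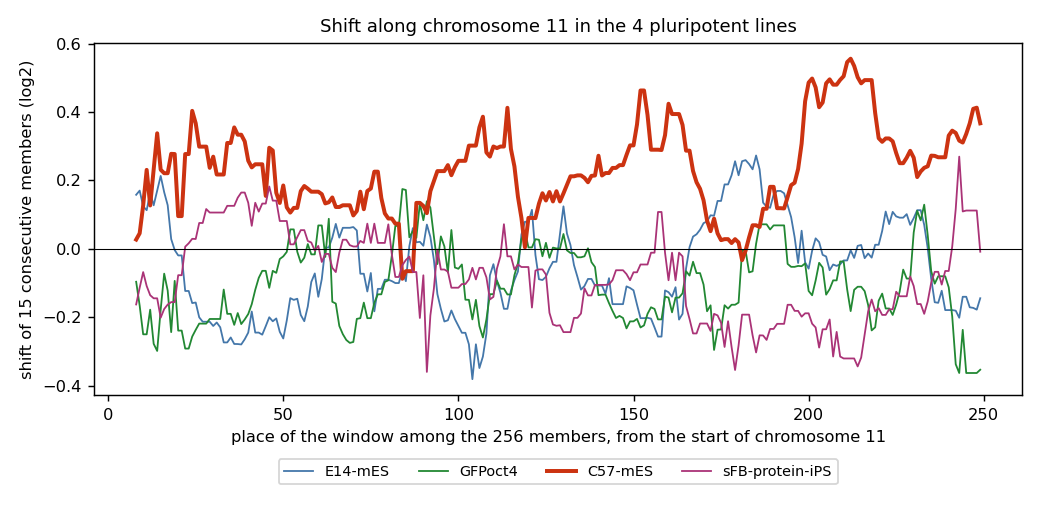
Shift along chromosome 11 (log2, vertical axis) against the place of the window among the 256 members from the start of the chromosome (horizontal axis), for the 4 pluripotent lines. The C57-mES line stays above 0 in 236 of 242 windows of 15 members, and the other lines cross 0 repeatedly.

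Chromosome 11 genes that the brightness rule had left out gave C57-mES shifts of the same sign. Those whose lowest line mean was 8.0 to 9.5, of which there were 173, gave a C57-mES shift of 0.22 ± 0.02 against genes of the same level elsewhere. The 152 genes between 7.0 and 8.0 gave 0.11 ± 0.02 (SD, n = 4). The 25 bright genes of the excluded families gave 0.25 ± 0.05. Choosing members by the other 3 lines only, without looking at C57-mES, gave 261 genes and 0.25 ± 0.02. These 261 hold all 256 members, so that value mostly repeats the main one and is no left-out set. A second probe with a mean of 8.0 or more was available for 79 members. These second probes gave 0.13 ± 0.03, and 64 of 79 had the sign of the first probe in C57-mES. By level the shift was 0.20 in the dimmest part of the members, 0.35 in the middle and 0.15 in the brightest.

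At the threshold itself, the members just inside were Atpaf2 with a lowest line mean of 9.51 in E14-mES, Camk2b with 9.51 in GFPoct4 and Smarce1 with 9.53 in C57-mES. Just outside lay Pitpna with 9.497 in C57-mES, Papolg with 9.496 in sFB-protein-iPS and Tmed4 with 9.49 in sFB-protein-iPS. Over the 4 line means the members had a median range of 0.67, from 0.08 to 2.32, beside a median of 0.65 for bright genes elsewhere. In 54 members (21.1%) the highest line was at least 2-fold above the lowest, as in 21.4% of the bright genes elsewhere. Members thus varied among lines about as much as other bright genes.

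The 7 role lists held 140 members and 116 were in none. The shift in C57-mES was spread over roles. In signalling 5 of 18 members were called higher and 6 lower, in the cell cycle 6 and 1 of 14, and in chromatin and transcription 10 and 2 of 23. In RNA processing 13 of 24 were higher and 2 lower, and in translation and protein handling 11 and 2 of 23. Metabolism and mitochondria had 8 and 3 of 16, cytoskeleton and trafficking 10 and 2 of 22, and the members in no list 56 and 13 of 116. Beside these, 46.5% of all members, 25.5% of bright genes elsewhere and 17.8% of all genes were called higher, and 12.1%, 30.8% and 19.2% lower. The median log2 difference was between 0.16 and 0.23 in all of these but signalling, where it was 0.05. The chromatin list also holds Smtnl2, Drg1, Drg2, Rnf167 and Utp6, which are not known mainly for chromatin or transcription.

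Among the signalling members Stat3 was called lower in C57-mES. Its level was 10.12, 10.16, 10.10 and 10.11 on the C57-mES arrays, against 10.37, 10.45, 10.58 and 11.54 in E14-mES. It was 11.38, 11.21, 10.96 and 11.02 in GFPoct4 and 10.84, 10.73, 10.55 and 11.11 in sFB-protein-iPS. The C57-mES arrays were the 4 lowest of the 16, and E14-mES replicate 4 was the highest. The log2 difference was -0.77 ± 0.14 (SE, adjusted p = 7.58e-05), or 1.71-fold lower, and in the value table without normalization it was -0.67 and no longer passed (adjusted p = 0.0821). Its other probes gave -0.43 and -0.48 in C57-mES. Without the 2 arrays that stand apart the difference was -0.35 (adjusted p = 0.00934), and in the 16 pluripotent arrays alone -0.43 (adjusted p = 0.016), with another Stat3 probe the brightest in both settings. With the probe kept, a check added after seeing the data, these were -0.66 and -0.77 (adjusted p = 7.93e-07 and 0.000124). Socs3, which switches the Stat3 signal off, lay at 13.02, 13.14, 13.05 and 13.12 in C57-mES and differed from the other lines by 0.06 ± 0.09 (SE, adjusted p = 0.647). In GFPoct4 Socs3 fell by 0.83 (adjusted p = 2.09e-08), with 12.34 to 12.54 there and 12.87 to 13.35 in E14-mES.

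The adaptors of receptor tyrosine kinases Grb7 and Grb10 moved in other lines. Grb7 lay at 12.50, 12.56, 12.60 and 13.00 on the E14-mES arrays, above all other pluripotent arrays, with a log2 difference of 1.47 ± 0.09 (SE, adjusted p = 1.39e-12). It was lowest in sFB-protein-iPS, at 10.74 to 10.87, with a difference of -0.995 ± 0.09 (SE, adjusted p = 1.08e-09). Grb10, an imprinted gene, lay at 9.51, 9.59, 9.81 and 9.80 in GFPoct4 and 11.05 to 11.39 in C57-mES. Its difference in GFPoct4 was -1.65 ± 0.09 (SE, adjusted p = 3.22e-13), and the GFPoct4 arrays were below all 12 others. Mapk9, the stress kinase JNK2, differed by 0.54 ± 0.10 (SE, adjusted p = 8.39e-05) in E14-mES, where its other probes gave 0.11 and 0.23. Its size ran from 0.29 with the mean of all probes to 0.92 in the value table. In C57-mES Grb7 gave -0.54 and Grb10 0.37 (adjusted p = 1.62e-05 and 0.00206), and neither passed in the value table (adjusted p = 0.105 and 0.115).

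The largest rise in C57-mES was that of Nxn, nucleoredoxin, a thioredoxin-like protein known to restrain Wnt signalling through Dishevelled. Its level was 13.03, 13.04, 13.04 and 13.00 on the C57-mES arrays. It was 11.76, 11.94, 11.95 and 11.76 in E14-mES, 11.70, 11.47, 11.42 and 11.27 in GFPoct4 and 11.04, 11.28, 11.31 and 11.45 in sFB-protein-iPS. All C57-mES arrays lay above the 12 others, and the log2 difference was 1.501 ± 0.09 (SE, adjusted p = 3.98e-13), or 2.83-fold. In FVB-sFB Nxn lay at 12.87 to 13.27, as bright as in C57-mES. The next largest was Tex19.1, a gene of germ cells and pluripotent cells known for restraining retrotransposons. It lay at 13.43, 13.39, 13.27 and 13.23 in C57-mES, 12.87 to 13.01 in sFB-protein-iPS, 11.01 to 11.95 in E14-mES and 11.47 to 11.74 in GFPoct4. The difference was 1.30 ± 0.11 (SE, adjusted p = 3.31e-10). Castor1, the arginine sensor of the growth kinase complex mTORC1, rose by 1.08 (adjusted p = 2.49e-11). It lay at 11.42, 11.44, 11.57 and 11.69 in C57-mES, 10.88 to 11.18 in E14-mES and 10.02 to 10.14 in sFB-protein-iPS. For these 3 genes the C57-mES arrays did not overlap any other pluripotent array.

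**Figure D5:**
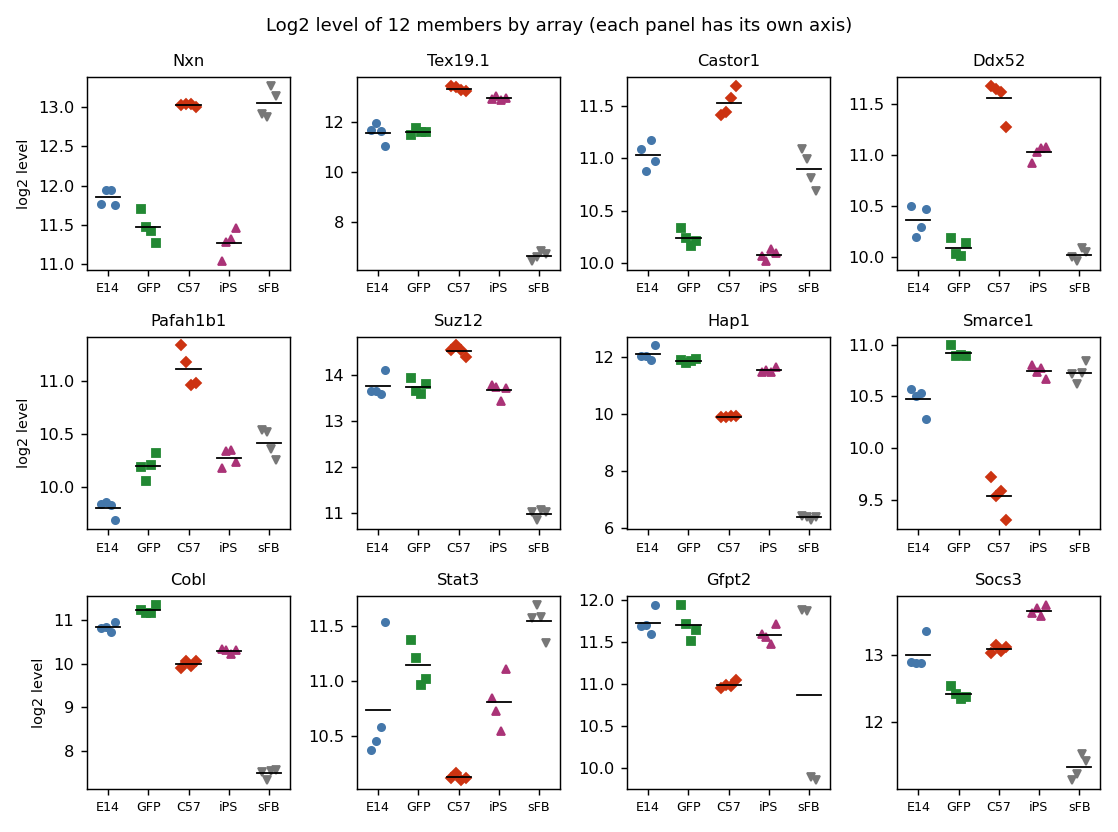
Level on each array (log2, vertical axis) of 12 members, 1 panel a gene, by group (horizontal axis, with shortened names in which sFB stands for FVB-sFB), and a bar at each mean. Nxn, Tex19.1, Castor1, Ddx52, Pafah1b1 and Suz12 are highest in C57-mES among the pluripotent lines, Hap1, Smarce1, Cobl, Gfpt2 and Stat3 are lowest there, and Socs3 is not.

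Chromatin members moved in both directions. Suz12, a core subunit of the Polycomb repressive complex PRC2, lay at 14.56, 14.65, 14.55 and 14.40 in C57-mES and at 13.66, 13.66, 13.60 and 14.11 in E14-mES. It was 13.93, 13.67, 13.60 and 13.82 in GFPoct4 and 13.79, 13.74, 13.45 and 13.72 in sFB-protein-iPS. The C57-mES difference was 0.81 ± 0.09 (SE, adjusted p = 6.01e-08), and the C57-mES arrays lay above the other 12. Smarce1, the BAF57 subunit of the SWI/SNF remodelling complex, went the other way. It lay at 9.72, 9.54, 9.58 and 9.30 in C57-mES and at 10.99, 10.89, 10.90 and 10.89 in GFPoct4, the line in which it was highest. The differences were -1.18 ± 0.08 (SE, adjusted p = 2.4e-12) in C57-mES and 0.67 ± 0.08 (SE, adjusted p = 9.23e-08) in GFPoct4, and a second probe gave -1.21 and 0.86. Mafg, a small Maf transcription factor, was highest in sFB-protein-iPS, at 11.88 to 11.94, with a difference of 1.65 ± 0.08 (SE, adjusted p = 5.28e-14), and it was also called higher in C57-mES (0.91). H3f3b, which encodes histone H3.3, was called lower in C57-mES (-0.34, adjusted p = 0.00135), though not in the value table (-0.24, adjusted p = 0.129). Hdac5, a class IIa histone deacetylase, rose in GFPoct4 by 0.57 (adjusted p = 1.68e-06), and by 0.37 with the mean of all probes.

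Hap1, the huntingtin-associated protein, had the largest difference downwards in C57-mES. It lay at 9.88, 9.89, 9.93 and 9.91 in C57-mES, 12.03, 12.04, 11.87 and 12.40 in E14-mES, 11.88, 11.77, 11.85 and 11.93 in GFPoct4 and 11.47, 11.54, 11.48 and 11.63 in sFB-protein-iPS. The C57-mES arrays were the lowest 4, and the difference was -1.92 ± 0.08 (SE, adjusted p = 1.81e-16), or 3.79-fold lower. Its other probes gave -0.52, -0.13 and 0.16, and with the mean of all probes the difference was -0.60. Those other Hap1 probes were dim, averaging 7.18, 6.59 and 6.43 over the lines, where the median of all probes was 6.79. Cobl, an actin nucleator, was lower in C57-mES by 0.79 and higher in GFPoct4 by 0.85 (adjusted p = 5.25e-10 and 2.45e-10). With the mean of all Cobl probes these were -0.32 and 0.33. Its other probes gave -0.21 and 0.05 in C57-mES and 0.16 and -0.03 in GFPoct4. They were dim too, averaging 7.07 and 6.53 over the lines. Gfpt2, an enzyme of hexosamine synthesis, was called lower in C57-mES, with -0.68 ± 0.25 (SE, adjusted p = 0.0319). That call ended when any 1 C57-mES array was left out (adjusted p = 0.0644 to 0.0769), under median centring (0.0734), in the value table (0.245) and without the 2 arrays that stand apart (0.0535). In FVB-sFB Gfpt2 lay at 11.88, 11.86, 9.89 and 9.86, with arrays 1 and 2 far above arrays 3 and 4.

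Among the RNA processing members 13 of 24 were called higher in C57-mES. That share was 46.5% over all members, 25.5% over bright genes elsewhere and 17.8% over all genes. Ddx52, a DEAD-box RNA helicase known in yeast for ribosome assembly, lay at 11.68, 11.65, 11.61 and 11.28 in C57-mES and at 10.18, 10.03, 10.01 and 10.14 in GFPoct4. Its difference was 1.06 ± 0.08 (SE, adjusted p = 3.28e-11) in C57-mES and -0.89 ± 0.08 (SE, adjusted p = 1.33e-09) in GFPoct4. Pno1, which helps assemble the small ribosomal subunit, gave 0.79 in C57-mES and -1.19 in GFPoct4 (adjusted p = 2.31e-09 and 2.63e-12). Pno1 was also called higher in sFB-protein-iPS (0.67, adjusted p = 4.66e-08), with a mean of 11.68 beside 11.77 in C57-mES. In GFPoct4 13 of the 24 RNA processing members were called lower and 2 higher, with a median of -0.30, where 34.4% of all members, 24.5% of bright genes elsewhere and 17.9% of all genes were called lower. Mybbp1a, a nucleolar protein, fell in GFPoct4 by 0.99 (adjusted p = 6.21e-08). In sFB-protein-iPS the splicing factors Srsf2 and Luc7l3 rose by 1.24 and 0.96 (adjusted p = 1.24e-11 and 3.84e-07), and in the value table Luc7l3 by 0.54. Srsf2 lay at 14.90, 14.94, 14.93 and 14.97 there and at 13.10 to 13.50 in E14-mES, and its other probes gave 1.38 and 1.59. Prpf8, the core protein of the spliceosome, differed by 0.13 ± 0.15 (SE, adjusted p = 0.569) in C57-mES.

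In translation and protein handling Eif5a, a translation factor, lay at 13.86, 13.91, 13.79 and 13.88 in C57-mES and at 12.11 to 12.94 in E14-mES, with a difference of 0.94 ± 0.12 (SE, adjusted p = 7.73e-07). Its second probe gave 0.14 and the mean of both 0.54, so the size rests on 1 probe. Eif4a1, an RNA helicase of translation initiation, differed by 0.10 ± 0.08 (SE, adjusted p = 0.38), and Npm1, nucleophosmin, by 0.02 ± 0.08 (SE, adjusted p = 0.885). Neither passed, and both turned sign under median centring (-0.03 and -0.14). Eif4a1 passed without the 2 arrays that stand apart (0.16, adjusted p = 0.0388), while its second probe gave -0.27 and the mean of both -0.09. Wsb1, a substrate receptor of a ubiquitin ligase, was highest in sFB-protein-iPS, with 1.16 (adjusted p = 6.11e-09) and 0.73 in the value table, and Ube2o, a ubiquitin conjugating enzyme, lowest there, with -1.22 (adjusted p = 2.77e-07). Sqstm1, the autophagy receptor p62, fell in E14-mES by 0.60 (adjusted p = 1.93e-07), while Gabarap, of the Atg8 family of autophagy proteins, rose in GFPoct4 by 0.80 (adjusted p = 0.000922). The Sqstm1 call was lost in the value table (-0.23, adjusted p = 0.205).

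Of the 14 cell cycle members 6 were called higher in C57-mES and 1 lower. Called higher and lower there were 46.5% and 12.1% of all members, 25.5% and 30.8% of bright genes elsewhere, and 17.8% and 19.2% of all genes. In sFB-protein-iPS 10 cell cycle members were called lower and 1 higher, with a median of -0.47. In that line 35.2% of all members, 29.2% of bright genes elsewhere and 19.7% of all genes were called lower. Top2a, the topoisomerase that untangles chromosomes before division, lay at 11.22, 11.33, 11.23 and 11.35 there and at 12.10 to 12.32 in C57-mES. Its difference was -1.05 ± 0.12 (SE, adjusted p = 8.15e-08). Tk1, thymidine kinase of S phase, fell by 0.96 (adjusted p = 3.43e-08) in sFB-protein-iPS. The Tk1 difference was -0.41 with the mean of all probes, where the other probes gave -0.08 and -0.19, and -1.52 in the value table. Those other Tk1 probes averaged 7.62 and 6.47 over the lines, beside a median of 6.79 for all probes on the arrays. Birc5, survivin, of the chromosomal passenger complex, differed by -0.70 ± 0.12 (SE, adjusted p = 2.58e-05) in sFB-protein-iPS. In C57-mES Birc5 differed by 0.07 ± 0.12 (SE, adjusted p = 0.693) and did not pass. Top2a differed there by 0.16 ± 0.12 (SE, adjusted p = 0.347), and without E14-mES replicate 4 it was 0.24 and passed (adjusted p = 0.00783). The primitive endoderm markers were higher in sFB-protein-iPS, and their part in these counts was not tested.

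In metabolism Nme1 and Nme2, neighbouring nucleoside diphosphate kinases, were both called higher in C57-mES. Nme1 lay at 14.40, 14.36, 14.38 and 14.37 and Nme2 at 15.02, 15.18, 15.06 and 15.12 there. The differences were 0.39 ± 0.09 (SE, adjusted p = 0.00107) and 0.34 ± 0.10 (SE, adjusted p = 0.00781), with arrays that overlapped those of other lines for Nme2. Their coding sequences are near copies, and whether the probes cross-react was not tested. Under median centring Nme2 was no longer called (0.27, adjusted p = 0.131). The mitochondrial carrier Slc25a39 and the nucleotide sugar transporter family member Slc35b1 gave 0.53 and 0.61 (adjusted p = 0.00397 and 1.66e-05). Aldh3a2, a fatty aldehyde dehydrogenase, gave -0.73 (adjusted p = 8.93e-07), a call that the value table lost (-0.63, adjusted p = 0.0535). Upp1, uridine phosphorylase, was highest in GFPoct4, with 0.72 (adjusted p = 1.22e-08).

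Of the 22 cytoskeleton and trafficking members 10 were called higher in C57-mES and 2 lower. Called higher and lower were 46.5% and 12.1% of all members, 25.5% and 30.8% of bright genes elsewhere, and 17.8% and 19.2% of all genes. Pafah1b1, the dynein regulator LIS1, lay at 11.33, 11.18, 10.96 and 10.98 in C57-mES and 9.68 to 9.86 in E14-mES, with a difference of 1.02 ± 0.08 (SE, adjusted p = 7.58e-11). The other probes of Pafah1b1 gave -0.65 and 0.06, and with the mean of all probes the difference was 0.14 and not called (adjusted p = 0.112). Those other probes were dim, averaging 7.05 and 6.22 over the lines, where the median of all probes on the arrays was 6.79. Pfn1, profilin, which binds actin monomers, gave 1.04 ± 0.21 (SE, adjusted p = 0.000302), and its second probe 0.10, with 0.57 for the mean of both (adjusted p = 0.0237). The brighter Pfn1 probe was also higher in sFB-protein-iPS, by 0.83, and gave -0.98 in E14-mES and -0.88 in GFPoct4. On E14-mES replicate 4 Pfn1 lay at 9.712, against 11.61 to 11.74 on the other E14-mES arrays. With any 1 array left out its C57-mES difference was 0.88 to 1.10. Tax1bp3, a small PDZ protein, was lowest in E14-mES, at 10.39, 10.30, 10.54 and 9.95, with a difference of -1.06 ± 0.09 (SE, adjusted p = 1.15e-09). Its other probes gave -1.06 and -0.12, the latter from a dim probe averaging 6.24 over the lines. In the value table the Tax1bp3 difference was -0.60. Arf2, of the Arf family of small GTPases, fell in E14-mES by 0.86 (adjusted p = 3.23e-08), a call that the value table lost (-0.39, adjusted p = 0.119). The least variable members of the role lists were Hnrnpab, with a range of 0.08 between line means, Cops3 with 0.13, Rab1a with 0.14 and Npm1 with 0.16.

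Of 15 chromosome 11 genes named whatever their values 10 were members. Grb2, Ddx5 and Actg1 were measured but lay below the brightness threshold in some or all lines, and Trp53 and Aurkb were not analysed here. Ddx5, an RNA helicase, differed in C57-mES by 0.79 (limma, adjusted p = 9.14e-05). Its mean was highest in sFB-protein-iPS, 10.93, beside 10.62 in C57-mES, 9.25 in E14-mES and 9.30 in GFPoct4. Actg1, a cytoplasmic actin, lay at 6.399 in E14-mES and 6.224 in GFPoct4, below the median of all probes, 6.79, so no difference is given. Grb2, the adaptor that links receptors to Ras, differed by 0.01 (adjusted p = 0.969).

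In FVB-sFB, which the rule did not use, the members' shift against the mean of the 4 pluripotent lines was 0.04 ± 0.02 (SD, n = 4), with arrays at 0.054, 0.065, 0.031 and 0.017, and it ran from -0.02 to 0.06 under other settings, so that it has no settled sign. Of the members 62 were called higher and 149 lower (24.2% and 58.2%), beside 26.1% and 29.4% of all genes and 27.8% and 58.8% of bright genes elsewhere. The shares were near those of other genes chosen for brightness in the pluripotent lines. Of the RNA processing members 22 of 24 were called lower, with a median of -1.23. Cell cycle members had 1 higher and 12 of 14 lower, with a median of -2.28, and cytoskeleton and trafficking members 13 of 22 higher and 3 lower, with a median of 0.42. Among the named members the largest differences were those of Upp1, at 7.84 to 8.16 in FVB-sFB, Tex19.1, at 6.42 to 6.82, and Grb7, at 6.31 to 6.51, with log2 differences of -6.20, -5.73 and -5.18. The levels of Tex19.1 and Grb7 in FVB-sFB lie near or below the median of all probes, 6.79, and no background limit was measured. Hap1, with -4.98, lay at 6.25 to 6.42 in FVB-sFB, which is under that median too. Top2a differed by -3.98. In the other direction Copz2, of the coatomer coat, and Sparc, a matrix glycoprotein of fibroblasts, chosen after their values were seen, differed by 3.50 and 3.18.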

How the data were processed

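Total RNA from 20 mouse samples was labelled with biotin, 500 ng a sample, and hybridized to Illumina bead arrays, per the labels. Values were exported with BeadStudio (version not given), per the submitters' processing notes. In the first deposited table the values are linear intensity of 25697 probes, without normalization. In the deposited value table they are log2 values, equal to the log2 of that intensity within 5e-09, so the authors did not normalize them. Every column with sample values was used (0 left out). Median intensity was 94.4 to 179 by array, and precision is limited by how many arrays there are. No detection p-values or slides were used, so neither a background limit nor a slide block could be set.

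From the intensities, normexp background correction (offset 50), quantile normalization and log2 were applied in R 4.3.3 with limma 3.58.1, and the brightest probe stood for each of 16593 genes. Of the probes 23978 had 1 gene symbol, 0 had several and 1719 had none. Chromosomes came from the RefSeq table of GRCm38.p6 through gene identifiers, for 16582 genes. One linear model over 5 groups was fitted to all arrays and genes, with Benjamini-Hochberg adjustment, and adjusted p-values throughout are limma's. Errors of log2 differences are standard errors, those of levels and shifts SD. The scripts were tested on simulated data.

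The members, role lists and markers were chosen with earlier results of these data known. Genes were named by a rule: the 5 largest increases and decreases of each line among called members whose arrays did not overlap, the 3 widest and 2 narrowest of each role list, 15 chosen genes, those nearest the threshold, and the ends of described blocks. Correlations within groups were 0.981 to 0.997, with 0 identical pairs of arrays. Same-numbered arrays were not treated as pairs. Of 40 pairs of deviations 5 correlated above 0.1 (range -0.330 to 0.246), which cannot tell whether such arrays shared a slide or batch.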

Additional observations from a re-analysis of the deposited data

Results flagged for a closer look

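Of 310 groups of 4 arrays tested among the named members and the shift, 28 (9.03%) had 1 array far from the other 3, where chance gives about 1 in 20. The values are normalized log2 levels, with the range of the other 3 arrays of the group in brackets.

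Of the 28, 12 were on E14-mES replicate 4. The array was high for Mybbp1a 12.84 (12.09 to 12.22), Socs3 13.35 (12.87 to 12.9), Top2a 13.09 (12.09 to 12.24), Map3k3 10.56 (9.605 to 9.765), Prpf8 11.5 (10.33 to 10.5), Suz12 14.11 (13.6 to 13.66) and Eif4a1 15.19 (14.87 to 14.92). The array was low for Tmem11 11.42 (12.15 to 12.3), Gabarap 10.31 (11.72 to 11.99), Luc7l3 11.67 (12.5 to 12.65), Tk1 10.64 (11.14 to 11.2) and Pfn1 9.712 (11.61 to 11.74).

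A further 7 were on GFPoct4 replicate 1. The array was high for Grb7 11.94 (11.47 to 11.55), Smarce1 10.99 (10.89 to 10.9), Srsf2 13.83 (13.27 to 13.34), Kctd2 10.91 (10.61 to 10.65) and H3f3b 14.34 (13.94 to 14.01). The array was low for Gabarap 12.12 (12.58 to 12.64) and Hint1 12.88 (13.97 to 14.06).

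The others were spread over further arrays. On C57-mES replicate 2 the level was low for Pno1 11.63 (11.81 to 11.83) and Kctd2 10.19 (10.56 to 10.63). On C57-mES replicate 3 the level was low for Srsf2 14.27 (14.35 to 14.36). On C57-mES replicate 4 the level was high for Rab1a 11.37 (11.01 to 11.07). On C57-mES replicate 4 the level was low for Ddx52 11.28 (11.61 to 11.68) and Aldh3a2 10.07 (10.31 to 10.34). On FVB-sFB replicate 2 the level was low for Cobl 7.323 (7.52 to 7.557). On sFB-protein-iPS replicate 1 the level was high for Luc7l3 13.35 (13.19 to 13.21). On sFB-protein-iPS replicate 2 the level was low for Eif5a 13.07 (13.16 to 13.18). The chromosome 11 shift itself had no such array in any group. No cause was tested for any of these values.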

How the results depend on the processing

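The chromosome 11 shift of C57-mES was 0.222 to 0.239 when any 1 array was left out, and 0.204 to 0.251 under 13 other settings of background, normalization, probe choice, threshold, families, reference genes and arrays. The lowest came with the mean of all probes of a gene (0.204). All 10 blocks stayed above 0 in C57-mES under each setting run. Leaving out 1 array gave -0.048 to -0.034 for E14-mES, -0.133 to -0.101 for GFPoct4 and -0.103 to -0.086 for sFB-protein-iPS, and a threshold of 9.0 gave -0.073 for GFPoct4. In FVB-sFB the shift turned or vanished with the mean of all probes (-0.0127), with a threshold of 10 (0.00234) and with the families kept in (-0.0175). The rule gave 305 members at 9.0 and 201 at 10.

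Counts of calls depended on the fold minimum and on the scaling. With a 2-fold minimum, members higher numbered 7 in C57-mES, 1 in E14-mES, 0 in GFPoct4 by limma (also 0 at an unadjusted p under 0.05) and 3 in sFB-protein-iPS, and members lower 2, 5, 4 and 2. Median centring gave 104 higher and 24 lower in E14-mES (40.6% and 9.38%), beside 46.7% and 8.4% of bright genes elsewhere. In sFB-protein-iPS it gave 26 higher and 145 lower (10.2% and 56.6%), beside 11.4% and 47.3% elsewhere. Over all genes it called 24.7% higher in E14-mES and 12.3% in sFB-protein-iPS. The value table gave 121 and 10 in E14-mES, 18 and 45 in GFPoct4, 10 and 173 in sFB-protein-iPS, and 83 and 6 in C57-mES. As shares of members these were 47.3% and 3.91%, 7.03% and 17.6%, 3.91% and 67.6%, and 32.4% and 2.34%. Bright genes elsewhere had 53.7% and 3.09%, 10.8% and 11.3%, 3.75% and 58.6%, and 17.1% and 12.3% in the same order. Of all genes 45.6%, 8.74%, 1.9% and 10.7% were higher. Leaving out 1 array gave 105 to 127 higher and 24 to 37 lower in C57-mES. With the replicate number as a block, 116 were higher and 31 lower in C57-mES, and the block changed no count by over 1.5 times. Without the 2 arrays that stand apart, a choice made after seeing the data, higher and lower calls were 58 and 79 in E14-mES, 63 and 103 in GFPoct4, and 72 and 106 in sFB-protein-iPS. For the runs with arrays left out and for the block no share of other genes is given.

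Of 1962 alternatives for 70 results of single genes 1883 kept direction and call, 69 lost the call, 3 gained it and 7 turned sign. The turned ones in C57-mES were not called under either setting. They were Birc5 without the 2 arrays (-0.0219), Eif4a1 with median centring (-0.0311) and the mean of all probes (-0.0878), and Npm1 with median centring (-0.136), in the value table (-0.0409) and without C57-mES replicate 1 or 3 (range over arrays left out -0.0271 to 0.101). The causes were not tested. Dim probes have no measured background limit here.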
